A study of Mus musculus with 6 samples.

Results

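The mitochondrial SLC25 carriers are a family of membrane proteins that exchange nucleotides, carboxylic acids, amino acids, cofactors and ions across the inner mitochondrial membrane. Their genes were selected here as the probe sets whose only symbol in the platform annotation begins with Slc25a, leaving out Slc25a3 and Slc25a20. This gave 48 probe sets for 44 genes, and each gene was represented by its probe set with the highest mean over the 6 arrays. The 44 genes stand among 19938 genes with a single symbol, and the array table holds 35557 probe sets in all. All 44 carried an Entrez identifier found in the RefSeq gene table.

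RNA was measured in tibialis anterior, a mixed limb muscle, of mice aged 11 weeks that had been starved for 6 h. The arrays fall into 3 labelled MLC-SOCS-3, whose mice have the MLC-SOCS-3 transgene in a C57Bl6J background, and 3 labelled control, from C57Bl6J mice. SOCS-3 is an inhibitor of cytokine and insulin receptor signalling, and MLC is, as background, the myosin light chain promoter, which drives expression in skeletal muscle fibres. Nothing in the labels says that the replicates come from separate animals, and the spread that the p-values rest on may therefore be technical. Both Socs3 probe sets read lower on the arrays labelled MLC-SOCS-3 (means 7.15 and 6.14) than on the control arrays (7.41 and 6.37). On both, every MLC-SOCS-3 array was below every control array, as for 6.76% of all probe sets. Unadjusted p was 0.0114 and 0.0296 in limma, and adjusted p was 0.80 and 0.82. Whether these probes lie in the transgene is not given in the sources used here, so the groups are called by their labels.

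Each carrier protein is built from repeated pairs of membrane-spanning helices and alternates between facing the intermembrane space and the matrix. In muscle, the adenine nucleotide carrier hands ATP to the contractile machinery and returns ADP, while the aspartate-glutamate and oxoglutarate carriers form the shuttle that brings reducing equivalents from glycolysis into the matrix. Other members supply citrate, coenzyme A, thiol and nucleotide cofactors, or iron for haem and iron-sulphur clusters.

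Values are log2 RMA intensities, in which a step of 1 is a doubling of fluorescence. Differences are MLC-SOCS-3 minus control, tested by limma over all 35557 probe sets with Benjamini-Hochberg adjustment at 0.05. Brightness is not compared between genes, because each probe set has its own response; a level is set only against the median probe set, at 5.99. Fast fibre markers of limb muscle (Ckm, Acta1, Myh4, Myh1, Tnnt3, Actn3, Mylpf and Pvalb) were all above that median on every array, and the log2 of their summed intensities was 17.16 to 17.21 on the arrays labelled MLC-SOCS-3 and 17.17 to 17.18 on the control arrays.

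The carrier family showed no gene that passed the test. Of 44 members, 0 had an adjusted p under 0.05 in limma, where 0% of all probe sets passed. The smallest adjusted p of a member was 0.80. At an unadjusted p under 0.05, 1 member was higher, against 2.52% of all probe sets, and 0 members were lower, against 3.40% of all probe sets (5.92% in either direction). That single member, Slc25a22, is 2.27% of the family, a share close to the background. With each array centred on its median, the background shares turned to 3.17% higher and 2.71% lower, and the member count stayed at 1 higher and 0 lower.

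The differences were small as well as uncalled. Positive values were found for 22 members and negative values for 22, against 46.8% positive among all probe sets. The median difference was 0.0079, beside -0.0094 over all probe sets. The size of the difference was under 0.1 for 29 members, from 0.1 to 0.2 for 11 and over 0.2 for 4. The moderated 95% interval of the difference, taken 1 gene at a time, lay inside a 1.5-fold change in either direction for 41 of 44 members. The same held for 79.4% of all probe sets and for 89.6% of those above the median probe set. The 3 exceptions were Slc25a24, Slc25a25 and Slc25a41, all carriers of ATP-Mg and phosphate.

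**Figure D1:**
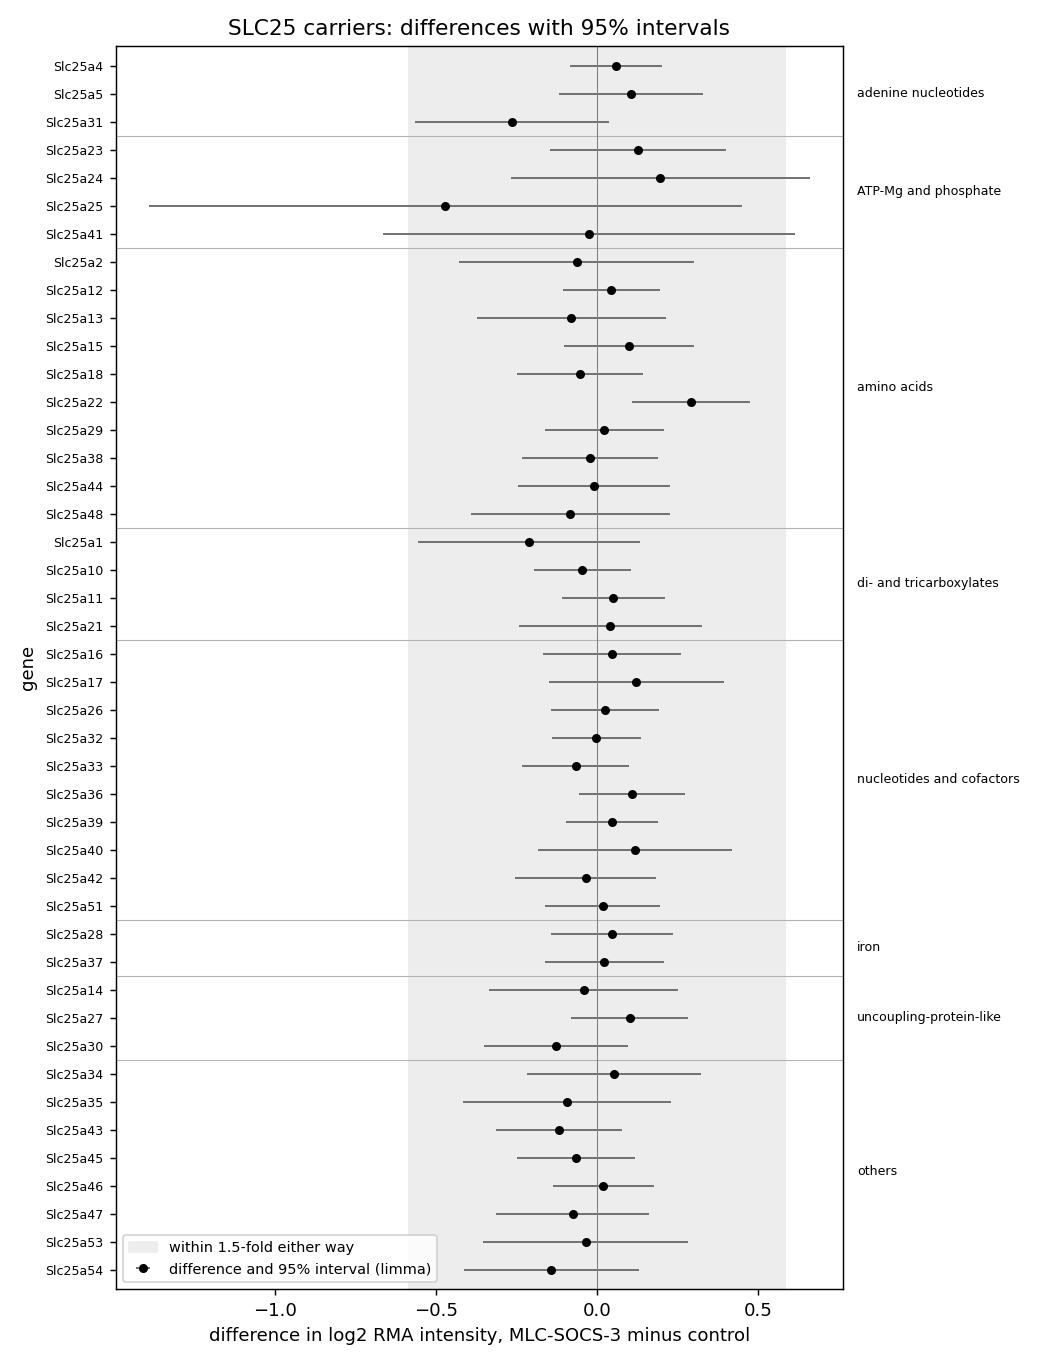
Difference in log2 RMA intensity (x axis, MLC-SOCS-3 minus control) for each of the 44 carrier genes (rows, by substrate group), with points for the difference, bars for the moderated 95% interval and shading for a 1.5-fold change either way. Slc25a22 is the only gene whose interval leaves out 0, and 41 intervals stay inside the shaded band.

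Of the 44 members, 33 were above the median probe set on all 6 arrays and 9 were below it on all 6. Slc25a14 was above it on 4 arrays and Slc25a43 on 1. The 9 dim members were Slc25a2, Slc25a13, Slc25a18, Slc25a21, Slc25a31, Slc25a41, Slc25a48, Slc25a53 and Slc25a54. Folds of dim probe sets are compressed on this scale, so narrow intervals there bound the array difference rather than the RNA difference. Among the 33 brighter members the median difference was 0.025, beside 0.0017 for all probe sets above the median.

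Carriers of adenine nucleotides exchange ADP for ATP. Slc25a4 encodes the isoform of heart and skeletal muscle. It read 14.14, 14.19 and 14.17 on the arrays labelled MLC-SOCS-3 and 14.11, 14.08 and 14.13 on the control arrays. Every MLC-SOCS-3 array was above every control array, but by little: the means were 14.17 ± 0.023 and 14.11 ± 0.026 (SD, n = 3 each), a difference of 0.060 ± 0.059 (SE, adjusted p = 0.89 in limma). The 95% interval ran from -0.083 to 0.20. Values this bright are compressed on the RMA scale.

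Slc25a5 encodes the isoform found in most other tissues. It read 9.99, 10.12 and 10.28 on the arrays labelled MLC-SOCS-3 and 10.01, 10.09 and 9.98 on the control arrays. The groups overlapped, with MLC-SOCS-3 replicate 3 the highest, and the difference was 0.10 ± 0.092 (SE, adjusted p = 0.88 in limma). Without MLC-SOCS-3 replicate 3 it was 0.031. Its 2 other probe sets gave 0.13 and 0.093, and MLC-SOCS-3 replicate 3 was the highest array on both. The 3 probe sets carry the same accessions, and the RefSeq table lists a pseudogene, Slc25a5-ps, so signal from near-identical copies cannot be told apart from Slc25a5. Slc25a31, the isoform of male germ cells, was among the dimmest members. It read 3.41, 2.99 and 3.37 on the arrays labelled MLC-SOCS-3 and 3.52, 3.48 and 3.56 on the control arrays. The groups did not overlap, and the difference of -0.26 ± 0.12 (SE) had an unadjusted p of 0.0766 and an adjusted p of 0.83 in limma. MLC-SOCS-3 replicate 2 was the lowest array, and without it the difference was -0.13.

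Groups failed to overlap for 5 members in all. Those higher on every MLC-SOCS-3 array were Slc25a4, Slc25a22 and Slc25a39, 6.82% of the family against 5.04% of all probe sets. Those lower were Slc25a31 and Slc25a43, 4.55% of the family against 6.76% of all probe sets. Both shares lie near the background.

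Carriers of amino acids and related compounds numbered 10, with 4 positive and 6 negative differences and a median of -0.015. Slc25a22, a carrier that brings glutamate into the matrix, had the smallest p of the family. It read 8.29, 8.35 and 8.17 on the arrays labelled MLC-SOCS-3 and 7.94, 8.04 and 7.95 on the control arrays. All MLC-SOCS-3 arrays were above all control arrays. The means were 8.27 ± 0.092 and 7.97 ± 0.054 (SD, n = 3 each), a 1.22-fold difference (log2 0.29 ± 0.075 SE, 95% interval 0.11 to 0.48). Its unadjusted p was 0.00799 and its adjusted p 0.80 in limma, so it did not pass. Adipocyte markers moved the same way: 5 of 5 (Adipoq, Plin1, Lep, Cidec and Fabp4) were positive, and their summed level was 11.09 to 11.26 on the arrays labelled MLC-SOCS-3 and 10.96 to 11.12 on the control arrays. Slow fibre markers moved the other way, with 4 of 4 (Myh7, Tnnt1, Myl2 and Tnni1) negative and a summed level of 8.30 to 8.48 on the arrays labelled MLC-SOCS-3 and 8.52 to 8.69 on the control arrays. These 4 were near the median probe set at 5.99, with means from 6.22 to 6.90. Myl2 was above it on 5 arrays, and Myh7 differed by -0.030. Tendon markers, all 5 negative, summed to 10.04 to 10.11 on the arrays labelled MLC-SOCS-3 and 10.05 to 10.37 on the control arrays. Positive differences were also found for 4 of 5 macrophage, 5 of 5 fibroblast, 1 of 4 endothelial, 0 of 1 Schwann cell and 1 of 2 erythroid markers. Brown adipocyte markers were positive in 0 of 2 (Ucp1 -0.073 and Cidea -0.25). Among all probe sets 46.8% were positive. None of these marker genes passed over all probe sets, and their part in the Slc25a22 value was not tested.

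RefSeq places 3 start sites at Slc25a22 on chromosome 7 of GRCm38.p6. The window below, chr7:141435326-141435625 on the minus strand, is shown because it belongs to the member with the smallest p and holds 3 matches to the GC box GGGCGG that share their end bases. It runs from 250 bases before the start to 50 after it, and the capitals mark the matches on the opposite strand, from base 198 to base 213.
Slc25a22: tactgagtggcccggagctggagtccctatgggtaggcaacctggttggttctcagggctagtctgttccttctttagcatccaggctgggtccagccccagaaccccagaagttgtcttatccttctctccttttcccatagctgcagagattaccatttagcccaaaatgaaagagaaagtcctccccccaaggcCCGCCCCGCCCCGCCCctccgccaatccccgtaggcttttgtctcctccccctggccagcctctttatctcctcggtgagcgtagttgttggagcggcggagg
Neither of the other Slc25a22 windows, nor this one, holds the letters of the STAT, E-box or cAMP response element motifs searched.

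Slc25a12 encodes the calcium-regulated aspartate-glutamate carrier of muscle and brain. It read 12.74, 12.73 and 12.75 on the arrays labelled MLC-SOCS-3 and 12.73, 12.64 and 12.72 on the control arrays. The values lay within 0.12 of each other, and the difference was 0.045 ± 0.061 (SE). Slc25a13, its liver counterpart, was below the median probe set, with 5.20, 5.23 and 5.55 against 5.28, 5.52 and 5.42 on the control arrays. Its groups overlapped at a difference of -0.080 ± 0.12 (SE). Slc25a44, a carrier of branched-chain amino acids, read 8.95, 8.71 and 8.78 on the arrays labelled MLC-SOCS-3 and 8.93, 8.70 and 8.83 on the control arrays. The groups overlapped over their whole range and the difference was -0.0087 ± 0.097 (SE). Slc25a15 and Slc25a2, the ornithine carriers, gave 0.10 ± 0.083 and -0.063 ± 0.15 (SE). For Slc25a29, a carrier of basic amino acids, and Slc25a38, the glycine carrier needed for haem synthesis, the differences were 0.023 and -0.022. Slc25a18, a second glutamate carrier, was at -0.053 and Slc25a48, linked to choline uptake and placed with this group, at -0.083.

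Within the glutamate carriers, then, only Slc25a22 had an unadjusted p under 0.05. Whether it differs from the other members was not tested.

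The 4 carriers of ATP-Mg and phosphate adjust the size of the matrix adenine nucleotide pool, and several of them are regulated by calcium. Slc25a25 varied more between arrays than any other member. It read 9.85, 10.02 and 8.97 on the arrays labelled MLC-SOCS-3 and 9.45, 10.53 and 10.27 on the control arrays. MLC-SOCS-3 replicate 3 was the lowest array and control replicate 1 the next, so the groups overlapped over most of their range. The means were 9.61 ± 0.56 and 10.08 ± 0.56 (SD, n = 3 each), and the difference of -0.47 ± 0.38 (SE, 95% interval -1.39 to 0.45) had an adjusted p of 0.87 in limma. Without MLC-SOCS-3 replicate 3 the difference was -0.15, and without control replicate 1 it was -0.79. Its pooled within-group SD of 0.56 exceeded that of 98.9% of probe sets above the median level. The median SD of the 44 members was 0.10, and 31 of them were under 0.15.

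One RefSeq start window of Slc25a25, chr2:32424017-32424316 on the minus strand of GRCm38.p6, is shown because it belongs to the most variable member and holds the cAMP response element TGACGTCA in full. Capitals mark that match, at bases 101 to 108, and a GC box at bases 198 to 203.
Slc25a25: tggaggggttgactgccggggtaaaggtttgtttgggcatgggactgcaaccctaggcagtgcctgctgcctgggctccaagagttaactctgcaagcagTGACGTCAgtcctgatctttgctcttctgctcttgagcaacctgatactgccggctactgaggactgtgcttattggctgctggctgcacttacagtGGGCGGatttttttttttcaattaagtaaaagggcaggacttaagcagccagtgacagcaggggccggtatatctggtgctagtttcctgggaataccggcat
Of the 2 other Slc25a25 windows, neither holds TGACGTCA. Which start the array probes follow is not given in the sources used here.

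Slc25a41 was the next most variable member, with 5.22, 5.67 and 4.61 on the arrays labelled MLC-SOCS-3 and 5.33, 5.13 and 5.11 on the control arrays. Its spread came from the MLC-SOCS-3 arrays (SD 0.53, against 0.12 in control) and it lay below the median probe set. As arrays were left out in turn its difference ran from -0.28 to 0.25. Slc25a24 read 6.42, 6.64 and 6.93 on the arrays labelled MLC-SOCS-3 and 6.55, 6.14 and 6.70 on the control arrays, a difference of 0.20 ± 0.19 (SE). Slc25a23 read 7.98, 7.80 and 7.76 against 7.87, 7.53 and 7.76 on the control arrays, a difference of 0.13 ± 0.11 (SE). Without control replicate 2 the difference was 0.035 for either gene, and without MLC-SOCS-3 replicate 3 that of Slc25a24 was 0.063. For each of these genes the groups overlapped. The mean deviation of the 4 genes from their 6-array means was 0.021, 0.19 and -0.28 on the arrays labelled MLC-SOCS-3, and -0.044, -0.0091 and 0.12 on the control arrays. On MLC-SOCS-3 replicate 3, Slc25a25 and Slc25a41 were at their lowest and Slc25a24 at its highest, so this mean is not a shared shift of the 4 genes. Over all 44 members the same mean stayed between -0.028 and 0.039 on the arrays labelled MLC-SOCS-3 and between -0.018 and 0.015 on the control arrays. A mean over 44 genes varies less than a mean over 4 by averaging alone.

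**Figure D2:**
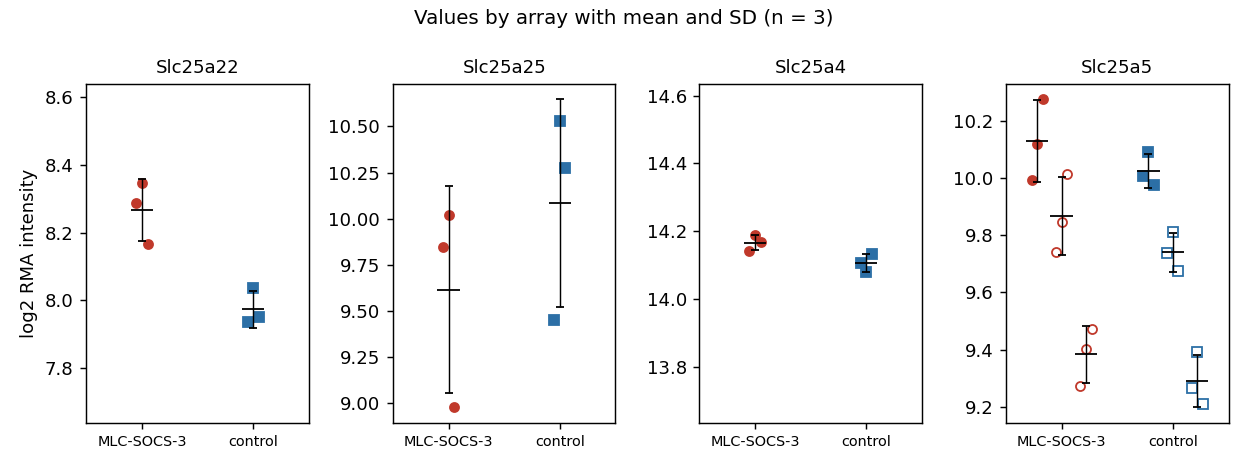
Log2 RMA intensity (y axis, its own range in each panel) by array for 4 carrier genes, with MLC-SOCS-3 arrays as red circles and control arrays as blue squares, and black lines for the mean and SD (n = 3). For Slc25a5 the filled symbols are the probe set used and the open ones its 2 others. Slc25a22 and Slc25a4 show no overlap between groups, while Slc25a25 spans 1.56 over the 6 arrays.

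Carriers of di- and tricarboxylates link the citric acid cycle with the cytosol. Slc25a11, the oxoglutarate-malate carrier of the same shuttle as Slc25a12, read 12.26, 12.19 and 12.23 on the arrays labelled MLC-SOCS-3 and 12.16, 12.12 and 12.25 on the control arrays. The difference was 0.051 ± 0.066 (SE), within the spread of the control arrays. Slc25a1, the citrate carrier that feeds lipid synthesis, read 6.80, 6.41 and 6.84 on the arrays labelled MLC-SOCS-3 and 7.03, 6.91 and 6.75 on the control arrays. Its difference was -0.21 ± 0.14 (SE, adjusted p = 0.86 in limma), and MLC-SOCS-3 replicate 2 was the lowest array while the others overlapped. Without that array the difference was -0.075. Slc25a10, the dicarboxylate carrier, read 7.34, 7.29 and 7.32 against 7.37, 7.31 and 7.41 on the control arrays, a difference of -0.045 ± 0.062 (SE). Slc25a21, the oxodicarboxylate carrier, was dim and differed by 0.041.

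Carriers of nucleotides and cofactors were 7 positive and 3 negative, with a median of 0.035. Slc25a39, which imports glutathione, read 10.31, 10.32 and 10.32 on the arrays labelled MLC-SOCS-3 and 10.30, 10.26 and 10.24 on the control arrays. The groups did not overlap, though MLC-SOCS-3 replicate 1 and control replicate 1 nearly met, and the difference was 0.047 ± 0.058 (SE, adjusted p = 0.91 in limma). Slc25a40, its relative, differed by 0.12 ± 0.12 (SE), with control replicate 2 the lowest array, and without it the difference was -0.0054. A second, dim Slc25a40 probe set gave 0.019. Slc25a33 and Slc25a36 carry pyrimidine nucleotides. Slc25a33 read 8.40, 8.35 and 8.33 on the arrays labelled MLC-SOCS-3 and 8.34, 8.46 and 8.47 on the control arrays, a difference of -0.066 ± 0.068 (SE). Slc25a36 gave 0.11 ± 0.068 (SE) and its other probe set 0.083.

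Slc25a42, a carrier of coenzyme A, read 8.09, 7.85 and 7.96 on the arrays labelled MLC-SOCS-3 and 7.91, 8.08 and 8.02 on the control arrays. Its difference of -0.036 ± 0.090 (SE) was within the spread of either group. Slc25a16, also linked to coenzyme A, was at 0.046 and Slc25a51, the NAD carrier, at 0.018. Slc25a26, the carrier of S-adenosylmethionine, was at 0.025, and Slc25a17, a member of the family that resides in peroxisomes, at 0.12 ± 0.11 (SE). Slc25a32, linked to folate and flavin transport, was the steadiest member: its 6 values lay within 0.018 of each other, around 8.22 in both groups. Its pooled SD exceeded that of 0.0056% of all probe sets, which says how closely the deposited values coincide and not how precisely the RNA was measured.

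Iron carriers, the mitoferrins, were both close to 0. Slc25a28 read 9.36, 9.17 and 9.36 on the arrays labelled MLC-SOCS-3 and 9.27, 9.25 and 9.22 on the control arrays, a difference of 0.047 ± 0.077 (SE). Slc25a37, the form of red cell precursors, read 7.15, 7.15 and 7.02 against 7.02, 7.17 and 7.05 on the control arrays, a difference of 0.023 ± 0.076 (SE). Neither separated the groups.

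Relatives of the uncoupling proteins had overlapping groups. Slc25a30 read 6.96, 7.00 and 7.22 on the arrays labelled MLC-SOCS-3 and 7.14, 7.27 and 7.15 on the control arrays, a difference of -0.13 ± 0.091 (SE). Slc25a27 was at 0.10 ± 0.074 (SE) and Slc25a14 at -0.042 ± 0.12 (SE). Among the 8 remaining members, 2 were positive and 6 negative, with a median of -0.071. Slc25a46, an outer membrane member involved in mitochondrial shape, read 9.71, 9.74 and 9.71 on the arrays labelled MLC-SOCS-3 and 9.77, 9.66 and 9.68 on the control arrays. Slc25a34, with no settled substrate, read 8.13, 7.88 and 7.77 on the arrays labelled MLC-SOCS-3 and 7.89, 7.96 and 7.77 on the control arrays. Their differences of 0.020 ± 0.064 and 0.052 ± 0.11 (SE) did not exceed the replicate spread. Slc25a43 had the only separated groups of these 8, at -0.12 ± 0.080 (SE) and -0.051 without MLC-SOCS-3 replicate 2, and lay close to the median probe set. Slc25a35, Slc25a45, Slc25a47, Slc25a53 and Slc25a54 lay between -0.14 and -0.036.

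**Figure D3:**
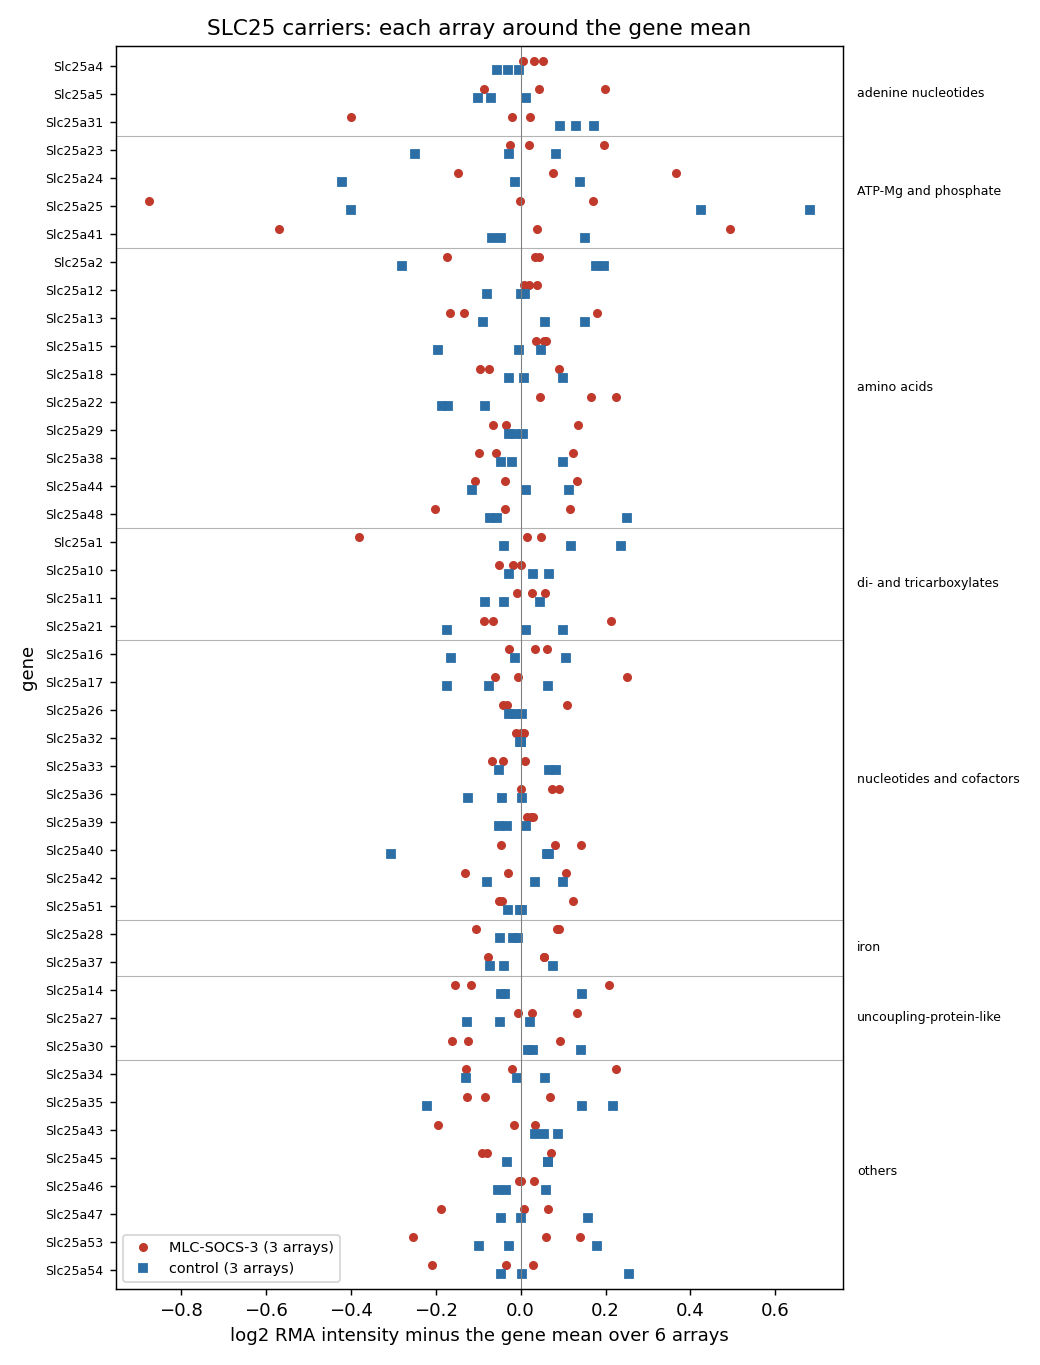
Log2 RMA intensity of each of the 44 carrier genes (rows, by substrate group) on each array, less the gene's mean over the 6 arrays (x axis), with MLC-SOCS-3 arrays as red circles and control arrays as blue squares. The colours are mixed in most rows, Slc25a25 and Slc25a41 spread widest, and the points of Slc25a32 nearly coincide.

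The pair of genes left out of the family by the selection read differently. Slc25a3, the phosphate carrier, was at 11.20, 11.18 and 11.21 on the arrays labelled MLC-SOCS-3 and 11.79, 11.69 and 11.82 on the control arrays (unadjusted p = 0.000123, adjusted p = 0.61 in limma). Slc25a20, the carnitine carrier, was at 11.47, 11.50 and 11.53 against 11.34, 11.27 and 11.35 on the control arrays (unadjusted p = 0.0263, adjusted p = 0.82 in limma). Both separated the groups without passing the test, so the counts above describe the family without the carrier of smallest p and without the one that follows Slc25a22.

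**Figure D4:**
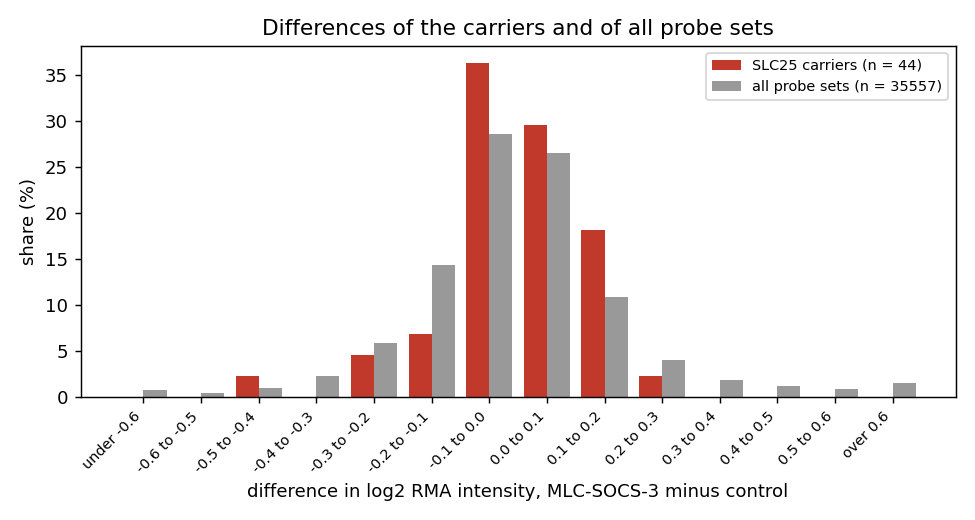
Share (y axis, %) of the 44 carriers (red) and of all 35557 probe sets (grey) in each 0.1-wide bin of the log2 difference, MLC-SOCS-3 minus control (x axis, with open bins at both ends). Carriers in the bins on either side of 0 make up 36.4% and 29.5% of the family, against 28.6% and 26.6% of all probe sets.

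Genes of mitochondrial transport whose symbols do not begin with Slc25a were also examined. The selection was by symbol, so carriers of the family with other names, such as Ucp3, were counted here. Of 18 measured genes of inner membrane transport with other symbols, 0 passed in limma in either direction. At an unadjusted p under 0.05, 1 gene, Ucp3, was higher, against 2.52% of all probe sets, and 0 were lower, against 3.40%. Ucp3, the muscle uncoupling protein, was at 11.68 ± 0.051 on the arrays labelled MLC-SOCS-3 and 11.46 ± 0.092 on the control arrays (SD, n = 3 each), a difference of 0.21 (unadjusted p = 0.0290, adjusted p = 0.82 in limma). By unadjusted p the next genes were Sfxn1, a serine carrier (0.23), Ppif, a regulator of the permeability pore (0.11), and Micu3, a regulator of calcium uptake (0.093). Groups did not overlap for Ucp3 and Ppif, which were higher, and for Smdt1 (-0.062) and Mcu (-0.056), which were lower. Among all probe sets 5.04% were separated higher and 6.76% lower. Of the 18 genes, 12 were positive, against 46.8% of all probe sets, and the list had a median of 0.031. All 6 outer membrane genes (Vdac1, Vdac2, Vdac3, Mtch1, Mtch2 and Tspo) were positive, against 46.8% of all probe sets. Their differences were small, between 0.0057 and 0.10, and 0 passed at either threshold. The smallest unadjusted p among them was 0.19 in limma (Tspo). Of 15 genes that import carrier proteins, among them Timm8a1 (0.13), Timm10 (0.12), Timm8b (0.063) and Timm22 (-0.068), 0 passed at either threshold. Positive differences were found for 10 of the 15, and the median was 0.039. Ucp1, the marker of brown fat, read below the median probe set on all arrays.

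In the genome the family is scattered: the 44 genes lie on 19 chromosomes. In the RefSeq gene order 4 pairs are direct neighbours among protein-coding genes. Slc25a5 and Slc25a43 on X differed by 0.10 and -0.12, Slc25a24 and Slc25a54 on chromosome 3 by 0.20 and -0.14. Slc25a23 and Slc25a41 on chromosome 17 differed by 0.13 and -0.026, and Slc25a29 and Slc25a47 on chromosome 12 by 0.023 and -0.076. In each pair one neighbour was positive and the other negative, and none passed the test.

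RefSeq start windows on chromosome 18 and windows of a length other than 300 bases were left out of all counts. Slc25a2 and Slc25a46, on chromosome 18, were therefore not searched. The windows kept covered 34 of the 44 genes, 44 windows in all, and were searched on both strands. Matches that overlap another motif were counted for both, and overlapping windows of a gene were counted separately. The GC box GGGCGG was in 81.8% of member windows, against 35.7% of all 32851 windows and 46.2% of the windows of protein-coding genes. Member windows were also richer in G and C, with a median of 59.3%, against 56.3% for protein-coding genes. The E-box CACGTG was in 18.2% of member windows (8 of 44), against 7.15% of all windows and 7.84% of coding ones. The 8 windows belong to 7 genes (Slc25a1, Slc25a13, Slc25a14, Slc25a15, Slc25a31, Slc25a33 and Slc25a36). At Slc25a14 the same site lies in overlapping windows, so it was counted more than once and the share rests on few sites. The STAT motif TTCNNNGAA, of the pathway that SOCS-3 inhibits, was in 4.55% (Slc25a36 and Slc25a54), against 8.30% of all windows and 7.69% of coding ones. The oestrogen-related receptor element AAGGTCA was in 2.27% (Slc25a34), against 4.72% of all windows and 4.08% of coding ones. TGACGTCA was in 4.55% (Slc25a25 and Slc25a36), against 1.79% and 2.23%. The core of the NRF-1 motif, GCGCATGC, was in 4.55% (Slc25a31 and Slc25a54), against 2.71% of all windows and 3.52% of coding ones. Each of these 4 member shares rests on 1 or 2 windows. Its longer form, the core followed by GC, was searched first and was in 0 of 44 member windows. It was in 0.971% of all windows and 1.33% of coding ones. The core was added after that count was seen, and the order of the shares in the members and in all windows differs between the forms. No member passed the test, and Slc25a22, the only one with an unadjusted p under 0.05, has a GC box and no E-box or STAT match. With 1 such gene, no relation between a motif and the differences can be read.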

How the data were processed

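Tibialis anterior RNA from 6 samples (3 labelled MLC-SOCS-3, 3 labelled control) was measured on 1 Affymetrix array each, from 300 ng of total RNA per the labels. The authors deposited log2 intensities, and the submitters' processing notes name RMA and Affymetrix Expression Console; no version or genome build is given in the sources used here. RMA normalizes arrays together and compresses folds of dim and very bright probe sets. Array medians lay between 5.98 and 6.04, so values were used as deposited, in all 6 columns. The table has no detection calls, and the number of arrays limits the precision. At most 36 values were identical between any pair of arrays.

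The platform annotation lists 23410 of 35557 probe sets, 21789 with 1 symbol and 1621 with several. The groups were compared with limma 3.58.1 in R 4.3.3 (lmFit, eBayes, two-sided, Benjamini-Hochberg over all probe sets, 95% intervals moderated and unadjusted), after a check of the code on simulated data. Members and lists were chosen with earlier results of these data known. Members with an unadjusted p under 0.05 and a fixed set of genes known in muscle or mitochondria are given array by array; further members described so were chosen after their values were seen. Marker sums are log2 of summed linear intensities. Promoter windows are from RefSeq, GRCm38.p6, without those on chromosome 18. The motifs were chosen after the members' values were seen, the printed windows also after their matches were seen, and the shorter NRF-1 form after the longer one had been counted, for reasons of printing and not of biology. Alternatives covered probe sets tested, level, centring, quantile normalization, moderation, array weights, a replicate block, the probe set of a gene, and leaving out each array.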

Additional observations from a re-analysis of the deposited data

How the results depend on the processing

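In all 15 alternatives 0 members passed an adjusted p of 0.05 in limma. Slc25a22 had an unadjusted p under 0.05 in each of them, from 0.00154 to 0.0283, with a difference of 0.25 to 0.34 and an adjusted p of at least 0.47. Members higher at an unadjusted p under 0.05 numbered 2 when moderation was robust and used a mean-variance trend, whether over all probe sets or over listed ones, the added one being Slc25a4. Leaving out each array gave 1 member higher each time and 0 to 1 lower (Slc25a31, without MLC-SOCS-3 replicate 1), and turned the sign of 2 to 8 of the 44 differences. The median difference of the members ran from -0.023 (without MLC-SOCS-3 replicate 1) to 0.022 (without control replicate 1) in these fits, and was 0.027 with arrays centred, -0.00039 after quantile normalization and 0.024 among the 34 members above the median level, so its sign depends on the setting. Probe sets called numbered 11 over listed probe sets with trend and robust moderation, none of them a member, and 0 to 1 when an array was left out (1 without control replicate 2). The cause of these changes was not tested.

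The labels do not say that replicate numbers pair the samples. Within-group deviations of same-numbered arrays correlated at -0.026, -0.018 and -0.043, and 0 of 6 arrays correlated best with its own number. Deviations from means of 3 arrays cannot exclude that same-numbered samples share a litter, batch or day. With the replicate number as a block, limma called 0 members and 0 probe sets, 1 member was higher and 0 lower at an unadjusted p under 0.05, and the median difference was 0.0079. With 3 arrays a group, signal near background limits the 9 dim members.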
